A study of Mus musculus with 8 samples.

Results

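Nr4a1, Nr4a2, Nr4a3, Egr1, Egr2, Egr3 and Zbtb32 are 7 genes for transcription factors of the T-cell activation response, taken by symbol from the 27998 genes of the table. All 7 were in the gene list and had at least 1 UMI (unique molecular identifier, 1 tag per captured mRNA molecule). The NR4A factors (NUR77, NURR1 and NOR1) are orphan nuclear receptors that bind DNA without a known physiological ligand. The EGR factors are zinc-finger proteins that act downstream of calcium and MAP kinase signals. Both families belong to the immediate early genes, whose mRNA appears within minutes of antigen receptor or growth factor signals and decays fast. NR4A factors are known for their part in T-cell exhaustion and tolerance, EGR2 and EGR3 for anergy, and ZBTB32 (ROG, PLZP) is a BTB zinc-finger repressor induced in activated lymphocytes.

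The libraries held CD45+ tumor-infiltrating leukocytes (TILs) sorted from B16-OVA melanomas of C57BL/6 mice and profiled by droplet 5′ single-cell RNA-seq. There were 8 libraries, 1 for each condition and day, and each was made from the pooled tumors of 5 mice. Non-treated mice bore tumors and received no cells, and this library is labelled with the day 5 code. All other mice received adoptive cell transfer (ACT) of OT1 CD8+ T cells, which carry a T-cell receptor for an ovalbumin peptide. These cells were untransduced (UT, days 5 and 12) or transduced to secrete PD1d, a PD-1 decoy. PD1d was paired with the IL-2 variant IL-2v (day 12) or with IL-33 (day 12). The PD1d/IL-2v/IL-33 condition (days 5, 12 and 26) was a mixture of PD1d/IL-2v and PD1d/IL-33 cells in equal parts. It is here also called triple-engineered, a name for the mixture and not for single cells. The decoy joins the ectodomain of murine PD-1 to human IgG4 Fc, and whether UMIs of this construct were counted as Pdcd1 was not tested. The day 26 library is taken from its label, since the methods for these libraries describe only the earlier days. Transferred and host T cells are not told apart in the labels. With a single library for each condition and day, condition, pool of mice and library cannot be told apart in any comparison between libraries.

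Of 15700 barcodes, 12828 passed the cell filter, and the libraries held 1387032 to 24917112 UMIs. By raw marker UMIs, 4925 cells were gated as CD8 T, 1189 as CD4 T, 2377 as NK and 1339 as myeloid, and 2998 (23.4%) fell in no gate. A Pdcd1 UMI was detected in 2408 of the CD8 T cells and not in 2517. The UT day 12 and non-treated libraries were small, with 42 and 76 CD8 T cells, and 143 barcode sequences occurred in more than 1 library (95 among passing cells). Several markers that the gates did not use matched the labels. Foxp3 had 120 to 479 UMIs per 1000000 UMIs (CPM) in CD4 T sums and at most 14.5 in CD8 T sums. Klra4 had 311 to 639 in NK sums and at most 3.74 in myeloid sums, and Ly86 had 288 to 494 in myeloid sums and at most 2.93 in NK sums. Cd5 was at most 7.85 CPM in myeloid and 2.69 in NK sums, against at least 58.1 in CD8 T sums. Other T-cell markers were present in NK sums. Thy1 had 272 to 677 CPM there, against 817 to 1350 in CD8 T sums. Ranges in NK and CD8 T sums overlapped for Cd2 (128 to 453 and 202 to 447), Lck (231 to 439 and 348 to 790) and Cd28 (58.6 to 218 and 181 to 431). Tyrobp and Fcer1g were shared by NK and myeloid cells, and the melanoma genes Pmel, Mlana, Dct and Tyrp1 were each at most 2.29 CPM in CD8 T sums.

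The upstream sequences of the NR4A genes are given for the CRE half-sites they hold, and that of Egr2 for a second type of immediate early element. The 250 bases before a RefSeq transcription start are given 5′ to 3′ on the gene's strand (RefSeq, GRCm38.p6). Such a start need not be the outermost of the gene. The Nr4a1 and Egr2 windows and most of the Nr4a3 window lie inside the annotated span of the gene. Capitals mark the CRE half-site TGACG on either strand, which cAMP-response and related factors can bind, and in Egr2 also the CArG box, the element of serum response factor. Windows of 5 genes were searched, these 4 and Zbtb32. Egr1 and Egr3 were not searched. Of the 5 windows for Egr2 the first of 3 overlapping ones is shown.
Nr4a1, chr15:101266596-101266845, + strand: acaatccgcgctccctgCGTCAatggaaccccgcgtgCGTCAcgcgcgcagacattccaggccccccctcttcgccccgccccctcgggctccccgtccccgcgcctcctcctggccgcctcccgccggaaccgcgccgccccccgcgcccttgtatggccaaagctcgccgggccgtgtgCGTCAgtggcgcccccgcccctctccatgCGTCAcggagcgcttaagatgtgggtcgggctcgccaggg
Nr4a2, chr2:57124004-57124253, - strand: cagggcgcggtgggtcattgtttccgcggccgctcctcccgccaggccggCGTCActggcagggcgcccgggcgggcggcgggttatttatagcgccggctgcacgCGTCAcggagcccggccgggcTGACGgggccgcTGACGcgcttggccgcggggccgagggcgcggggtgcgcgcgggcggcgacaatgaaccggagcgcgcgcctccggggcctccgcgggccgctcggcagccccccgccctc
Nr4a3, chr4:48045055-48045304, + strand: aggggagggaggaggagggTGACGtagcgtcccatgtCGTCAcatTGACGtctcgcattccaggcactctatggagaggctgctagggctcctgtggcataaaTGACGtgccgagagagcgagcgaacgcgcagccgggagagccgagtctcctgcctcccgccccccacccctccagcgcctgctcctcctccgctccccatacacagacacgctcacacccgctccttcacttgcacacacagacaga
Egr2, chr10:67537619-67537868, + strand: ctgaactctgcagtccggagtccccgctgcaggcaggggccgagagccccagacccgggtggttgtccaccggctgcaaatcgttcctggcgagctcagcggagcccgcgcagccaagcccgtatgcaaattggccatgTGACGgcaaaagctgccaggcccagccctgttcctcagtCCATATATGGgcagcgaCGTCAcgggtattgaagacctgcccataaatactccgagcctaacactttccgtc

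Each of the Nr4a1, Nr4a2 and Nr4a3 windows held 4 CRE half-sites. At least 1 was found in 17.8% of all 32851 windows of the same length, and at least 4 in 45 of them (0.137%). The Egr2 window shown held 2 half-sites and 1 CArG box 72 to 63 bases before its start, and a CArG box was found in 1.47% of windows. Outside the overlapping windows, the Egr2 window from base 67537316 held 1 CArG box and no half-site. That from base 67535249 held none of the motifs searched. An EGR site (GCGNGGGCG) was present once in the Nr4a1 and once in the Nr4a2 window, against 4.7% of windows with at least 1. Neither of the 2 Zbtb32 windows held any of these motifs. No window of the 5 genes held an AP-1 site (TGANTCA) or the full CRE, which contains the half-site (6.75% and 1.55% of windows). A match is a description of letters and no evidence of binding.

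Across cell types the 7 genes fell into separate patterns. Nr4a1, Egr1 and Egr2 had their highest mean levels in myeloid cells, Nr4a2 and Zbtb32 in CD8 T cells, and Nr4a3 was at similar levels in both T-cell gates. Of the UMIs in passing cells, the myeloid gate held 37.3% for Nr4a1, 45.4% for Egr1 and 55.3% for Egr2, whereas the CD8 T gate held 53.6% for Nr4a2, 41.3% for Nr4a3 and 72.2% for Zbtb32. Gate size enters these shares: the CD8 T gate held 4925 and the myeloid gate 1339 of the 12828 passing cells. The paper describes the sorted cells as enriched in CD8+ TILs. The Nr4a3 share is therefore not read as a CD8 T pattern. Egr3 had 74 UMIs in all passing cells, and Egr4, the remaining EGR gene, had 7. All levels are UMIs of a gene per 1000000 UMIs of the summed cells and are not per length, so that levels of different genes are not compared.

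Nr4a1, the reporter gene of antigen receptor signalling, had 1272 ± 607 CPM (SD, n = 7 libraries) in myeloid cells. It had 602 ± 248 in CD4 T, 364 ± 175 in NK and 243 ± 89.7 in CD8 T cells (n = 8 each). The CD8 T level was the lowest of the gates in each of the 7 libraries with all 4 gates. The log2 difference was -1.21 (SE 0.21, adjusted p = 3.89e-05 by edgeR's quasi-likelihood test) for CD8 T against CD4 T cells and -2.61 (SE 0.22, adjusted p = 6.2e-12) against myeloid cells. Against NK cells it was -0.45 (SE 0.20, adjusted p = 0.0816), not past the threshold, although the CD8 T level was lower in 8 of 8 libraries. After every cell was thinned to 2000 UMIs, 69.8% of myeloid cells had a Nr4a1 UMI (84.6% unthinned), against 37.8% of CD4 T, 33.3% of NK and 21.3% of CD8 T cells (53.5%, 53.3% and 39.8% unthinned). Shares given for a gate without a library pool the cells of all libraries, so that large libraries weigh more.

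Nr4a2 ran the other way. It had 296 ± 111 CPM in CD8 T, 178 ± 81.7 in NK, 133 ± 54.6 in myeloid and 103 ± 44.6 in CD4 T cells (SD, n = 8 libraries, 7 for myeloid). CD8 T cells were above CD4 T cells by 1.60 on the log2 scale (SE 0.19, edgeR adjusted p = 2.31e-07) and in 8 of 8 libraries. They were above NK cells by 0.76 (SE 0.18, adjusted p = 0.00149) and above myeloid cells by 0.93 (SE 0.19, adjusted p = 9.62e-05). The order of NK and myeloid cells did not pass the threshold (0.17, SE 0.20, edgeR adjusted p = 0.446), although NK cells were higher in 6 of 7 libraries without thinning. With cells thinned to 2000 UMIs this order did pass (0.75, edgeR adjusted p = 0.004). The triple-engineered day 5 library was the exception to the NK order, with 168 CPM in CD8 T and 200 in NK cells. Thinned shares of cells with a Nr4a2 UMI, pooled over libraries, were 22.7% of CD8 T, 26.0% of NK, 12.0% of myeloid and 10.4% of CD4 T cells. The order of CD8 T and NK cells in shares went against that of the levels and is not read. Triple-engineered day 26, with the lowest Nr4a2 level of the CD8 T sums (146 CPM), gave 2225 of 4925 CD8 T but 74 of 2377 NK cells. The part of this weighting in the order of the shares was not tested.

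Nr4a3 had 108 ± 42.7 CPM in CD8 T and 108 ± 59.8 in CD4 T cells, 86.2 ± 55.1 in NK cells (n = 8) and 54.7 ± 28.5 in myeloid cells (n = 7). CD8 T cells were above myeloid cells by 0.69 on the log2 scale (SE 0.20, edgeR adjusted p = 0.00318), in 7 of 7 libraries. The CD8 T and CD4 T sums differed by 0.17 (SE 0.19, adjusted p = 0.58), so that their order was not resolved at this spread. Against NK cells the difference was 0.46 (SE 0.19, adjusted p = 0.0623).

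Egr1 had 289 ± 291 CPM in myeloid cells (n = 7), 83.2 ± 75.1 in CD4 T, 39.3 ± 21.0 in CD8 T and 27.4 ± 9.49 in NK cells (n = 8). Myeloid cells were above CD8 T cells by 2.65 (SE 0.37, edgeR adjusted p = 2.98e-07) and above NK cells by 3.29 (SE 0.42, adjusted p = 4.56e-08) on the log2 scale. CD4 T cells were above NK cells by 1.42 (SE 0.43, adjusted p = 0.0101), while CD8 T cells did not pass against CD4 T (-0.79, SE 0.39, adjusted p = 0.143) or NK cells (0.64, SE 0.41, adjusted p = 0.238). The Egr1 order varied between libraries. CD8 T cells were above myeloid cells in 0 of 7, but PD1d/IL-33 had a close 43.8 CPM in CD8 T and 47.1 in myeloid cells. In triple-engineered day 12, CD4 T cells had 253 CPM, above the myeloid cells, which had 109 or less. Egr2, known in macrophages as well as in anergic T cells, had 67.5 ± 41.5 CPM in myeloid cells and 6.21 ± 2.27 in CD8 T cells. The log2 difference was -3.61 for CD8 T against myeloid cells (SE 0.38, edgeR adjusted p = 9.23e-10). CD4 T, CD8 T and NK cells did not differ from each other in Egr2 past the threshold, with 0 UMIs in 2 of the 8 CD4 T and 2 of the 8 NK sums. A thinned Egr2 UMI was found in 13.1% of myeloid cells (28.9% unthinned) and in 1.18% of CD8 T, 0.757% of CD4 T and 0.715% of NK cells (3.45%, 2.27% and 2.40% unthinned).

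Zbtb32 was highest in CD8 T cells. Its level was 33.2 ± 30.3 CPM in CD8 T, 12.5 ± 9.15 in CD4 T and 4.37 ± 6.03 in NK cells (n = 8), and 2.77 ± 2.26 in myeloid cells (n = 7). CD8 T cells were above CD4 T cells by 1.41 on the log2 scale (SE 0.32, edgeR adjusted p = 0.00107), above NK cells by 2.75 (SE 0.34, adjusted p = 1.17e-07) and above myeloid cells by 4.15 (SE 0.43, adjusted p = 9.73e-10). Thinned shares of cells with a Zbtb32 UMI were 4.02% of CD8 T cells, at a median of 5999 UMIs per cell, and 0.299% of myeloid cells, at a median of 8826 (12.7% and 1.42% unthinned). The myeloid share is given as the level in a cell type that should lack the gene, and its source was not tested.

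**Figure D1:**
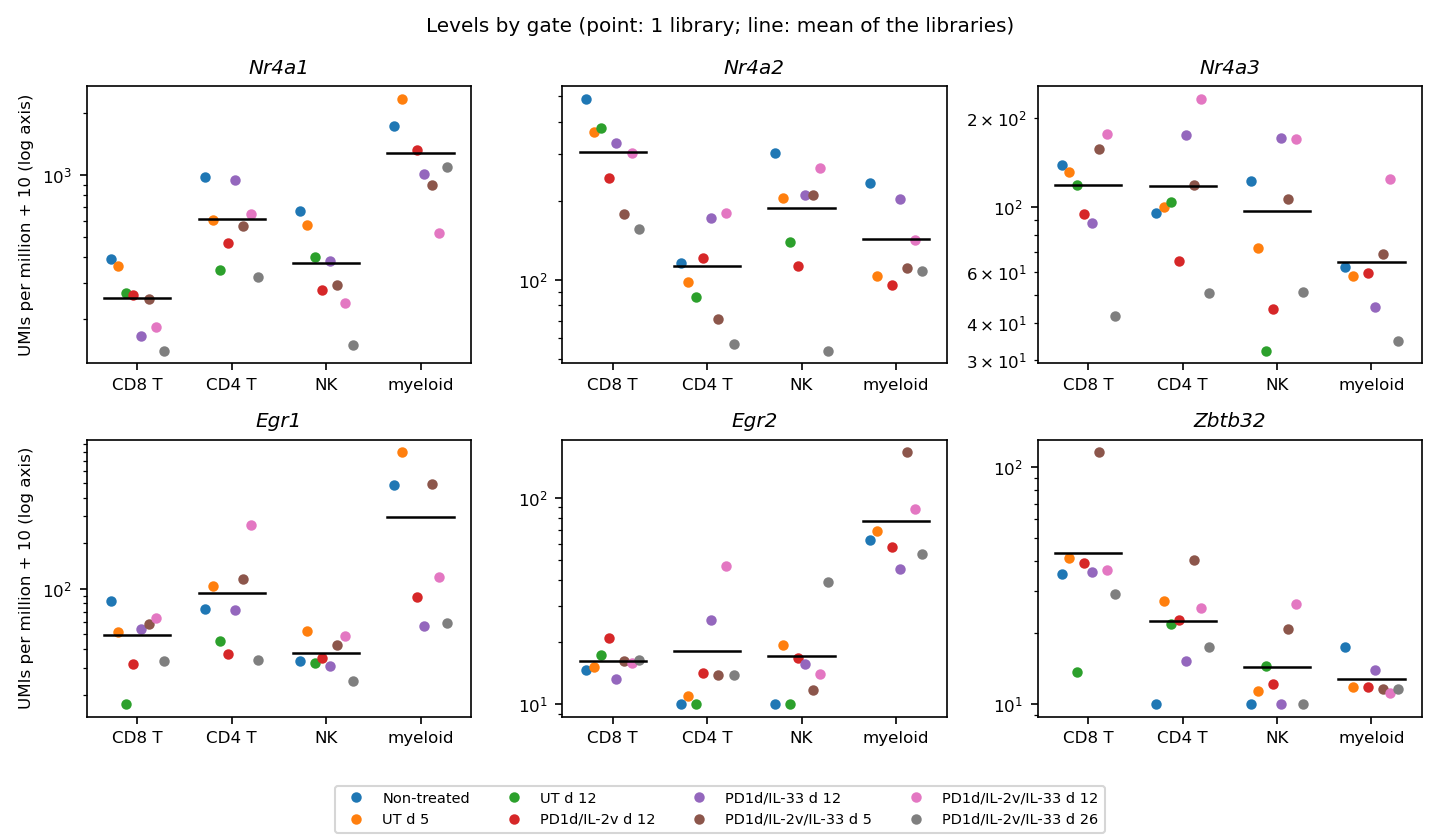
Levels of 6 genes (y axis: CPM plus 10, log axis) in CD8 T, CD4 T, NK and myeloid sums (x axis), with 1 coloured point per library and a line at the mean (myeloid without UT day 12, which held 14 myeloid cells). Nr4a1, Egr1 and Egr2 have their highest mean in myeloid cells (1272, 289 and 67.5 CPM), Nr4a2 and Zbtb32 in CD8 T cells (296 and 33.2 CPM).

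The counts of members called have to be read against those of all genes. In CD8 T against myeloid cells all 6 members with enough counts were called, 3 lower (Nr4a1, Egr1, Egr2) and 3 higher (Nr4a2, Nr4a3, Zbtb32), but so were 70.8% of all 9193 genes tested. The same 6 were called in CD4 T against myeloid cells (64.3% of all genes), with Nr4a3 and Zbtb32 higher and Nr4a1, Nr4a2, Egr1 and Egr2 lower. In NK against myeloid cells 4 were called, Nr4a1, Egr1 and Egr2 lower and Zbtb32 higher (68.4% of all genes). Zbtb32 had only 106 UMIs in the NK and 22 in the myeloid gate, and its NK level was the higher in 3 of 7 libraries. Among lymphocytes, 3 of 6 were called in CD8 T against CD4 T cells (25.2% of all genes), 2 of 6 in CD8 T against NK cells (36.9%) and 4 of 6 in CD4 T against NK cells (35.2%). In the last of these Nr4a1 was higher by 0.76 (SE 0.21), Egr1 by 1.42 (SE 0.43) and Zbtb32 by 1.33 (SE 0.42) in CD4 T cells, and Nr4a2 lower (-0.84, SE 0.20). Egr3 did not pass the filter on low counts in any of these fits.

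Of the lists compared beside the members, AP-1 and dissociation genes were mostly lower in lymphocytes than in myeloid cells, and activation-induced genes went in both directions. In CD8 T against myeloid cells, 8 of 9 AP-1 genes were called lower and 1 higher, with a median log2 difference of -2.22 against 0.06 over all genes. Of 17 dissociation and heat-shock genes 13 were lower and 3 higher (median -2.14), and of 21 activation-induced genes 6 were lower and 10 higher (median 0.42). In CD4 T against myeloid cells the AP-1 counts were 7 lower and 1 higher of 9 and the dissociation counts 13 and 1 of 17, with activation genes 8 lower and 11 higher of 21. In NK against myeloid cells 8 AP-1 and 13 dissociation genes were lower and none of either list higher, and 8 activation genes were lower and 10 higher. Between CD8 T and CD4 T cells the dissociation list had 6 genes lower in CD8 T cells and 0 higher (median -0.28), AP-1 had 3 lower and 1 higher (median -0.46) and activation genes 7 and 7 (median -0.51). Between CD8 T and NK cells they had 6 lower and 3 higher, 4 lower and 1 higher, and 5 lower and 8 higher. Between CD4 T and NK cells they had 2 lower and 4 higher, 2 lower and 3 higher, and 7 lower and 10 higher. The part of tissue dissociation in the levels of Nr4a1, Egr1 and Egr2 was not tested.

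Of the gate calls, 4 were lost under several alternatives. Nr4a2 in CD4 T against myeloid cells (-0.67, SE 0.21) had adjusted p = 0.292 by edgeR after thinning and was uncalled in 7 of 20 alternatives. Nr4a3 in CD4 T against myeloid cells (0.52, SE 0.22) was also uncalled in 7 of 20, among them without any 1 of 6 libraries, with edgeR adjusted p between 0.0508 and 0.0871 there. Zbtb32 in NK against myeloid cells (1.40, SE 0.57) was uncalled in 6 of 19, with adjusted p = 0.318 by DESeq2 and 0.198 and 0.19 by edgeR without the triple-engineered day 5 and day 12 libraries. Zbtb32 in CD4 T against NK cells was uncalled in 4 of 19, with edgeR adjusted p of 0.0704 without UT day 5, 0.0602 without PD1d/IL-2v and 0.0617 without the triple-engineered day 5 library. Some orders that did not pass were called under alternatives. In CD8 T against NK cells, Nr4a1 was called in 3 of 20, Egr1 in 2 and Nr4a3 in 5. Thinning gave -0.56 for Nr4a1 (edgeR adjusted p = 0.0301) and 1.07 for Egr1 (edgeR adjusted p = 0.0348) there. In NK against myeloid cells, Nr4a2 was called in 3 of 20 and Nr4a3 in 2, thinning among them.

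Within CD8 T cells the question was whether cells with the inhibitory receptor PD-1 on the transcript level carried more of these factors. Nr4a2 and Nr4a3 were higher in Pdcd1-detected than in Pdcd1-undetected cells, by 1.08 (SE 0.21, adjusted p = 0.00199) and 0.51 (SE 0.14, adjusted p = 0.0181) on the log2 scale in edgeR's quasi-likelihood test with the library as a block. Zbtb32 (0.67, SE 0.25, adjusted p = 0.066), Egr2 (-0.57, SE 0.22, adjusted p = 0.0747), Nr4a1 (0.12, SE 0.12, adjusted p = 0.496) and Egr1 (0.04, SE 0.17, adjusted p = 0.904) did not pass. Thus 2 of the 6 members tested were called higher and 0 lower, where 11.9% of 8965 genes were called higher and 10.5% lower. The test used 7 libraries, since UT day 12 held only 15 Pdcd1-detected CD8 T cells. A p-value here measures the spread between pools of different conditions.

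The difference in Nr4a2 was large in some libraries and small in others. In Pdcd1-detected against undetected cells Nr4a2 had 565 against 225 CPM in non-treated, 430 against 110 in UT day 5, 407 against 105 in PD1d/IL-2v day 12 and 383 against 257 in PD1d/IL-33 day 12 TILs. In PD1d/IL-2v/IL-33 TILs it had 173 against 162 at day 5, 309 against 270 at day 12 and 211 against 59.6 at day 26. It was thus higher in 7 of 7 libraries, and the log2 ratio ranged from 0.09 (95% counting interval -0.11 to 0.30) at day 5 of the triple-engineered condition to 1.88 (1.63 to 2.14) in UT day 5. The 2 smallest ratios, 0.09 and 0.19 (0.06 to 0.32), were those of the triple-engineered days 5 and 12, and the ratio of its day 26 was 1.67 (1.52 to 1.81). This contrast between libraries was not tested, and the grouping was made after the values were seen.

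Nr4a3 was ordered in a similar way. It had 157 against 45.1 CPM in non-treated, 139 against 61.8 in UT day 5, 118 against 59.6 in PD1d/IL-2v and 97.2 against 58.1 in PD1d/IL-33 TILs. In the triple-engineered condition it had 141 against 154 at day 5, 175 against 156 at day 12 and 35.8 against 27.7 at day 26. The log2 ratios there were -0.12 (-0.34 to 0.10), 0.16 (-0.01 to 0.32) and 0.28 (0.07 to 0.49), against 0.65 to 1.60 in the other 4 libraries. These point values lay apart, but the counting intervals of PD1d/IL-33 (0.25 to 1.07) and of non-treated TILs (0.46 to 2.82) overlapped with those of triple-engineered libraries. This grouping was made after the values were seen and has no test. The call was lost without UT day 5 (0.38, adjusted p = 0.0697) or PD1d/IL-2v (0.43, adjusted p = 0.0878), and under stricter gates (0.42, edgeR adjusted p = 0.0522), without cycling cells (0.50, adjusted p = 0.0977) and without cells with Hspa1a or Hspa1b UMIs (0.38, adjusted p = 0.0776).

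Nr4a1 did not follow Nr4a2 and Nr4a3. Its ratio was positive in UT day 5 (0.60, 0.41 to 0.78), PD1d/IL-2v (0.58, 0.44 to 0.73) and the triple-engineered day 26 library (0.17, 0.04 to 0.29). It was negative in the triple-engineered day 5 (-0.20, -0.38 to -0.03) and day 12 libraries (-0.33, -0.49 to -0.18). The intervals of non-treated (0.50, -0.05 to 1.07) and PD1d/IL-33 TILs (-0.14, -0.44 to 0.16) held 0. Egr1 had 29.3 against 16.2 CPM in PD1d/IL-2v and 56.9 against 30.0 in PD1d/IL-33 TILs, but 40.3 against 59.8 and 44.2 against 71.4 in the triple-engineered day 5 and day 12 libraries. Its order was thus opposite in these pairs of libraries.

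Zbtb32 was higher in Pdcd1-detected cells in 6 of 7 libraries. It had 48.5 against 14.9 CPM in PD1d/IL-2v, 36.7 against 14.5 in PD1d/IL-33, 35.7 against 12.1 and 24.1 against 12.3 in the triple-engineered day 12 and day 26 libraries, and 33.8 CPM against 0 UMIs in non-treated TILs. It had 107 against 102 in the triple-engineered day 5 library and the opposite order, 25.6 against 49.6, in UT day 5. The gene passed the threshold without UT day 5 (0.92, edgeR adjusted p = 0.00628) and in 9 further alternatives of 22. Among these 9 was the split by Lag3 given below, which divides the cells by another gene. Thinned cells gave 0.15 (edgeR adjusted p = 0.832). Few cells carried the UMIs: in UT day 5 a single CD8 T cell held 20 of 144 Zbtb32 UMIs, and the tenth of cells with the most held 86.1%.

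**Figure D2:**
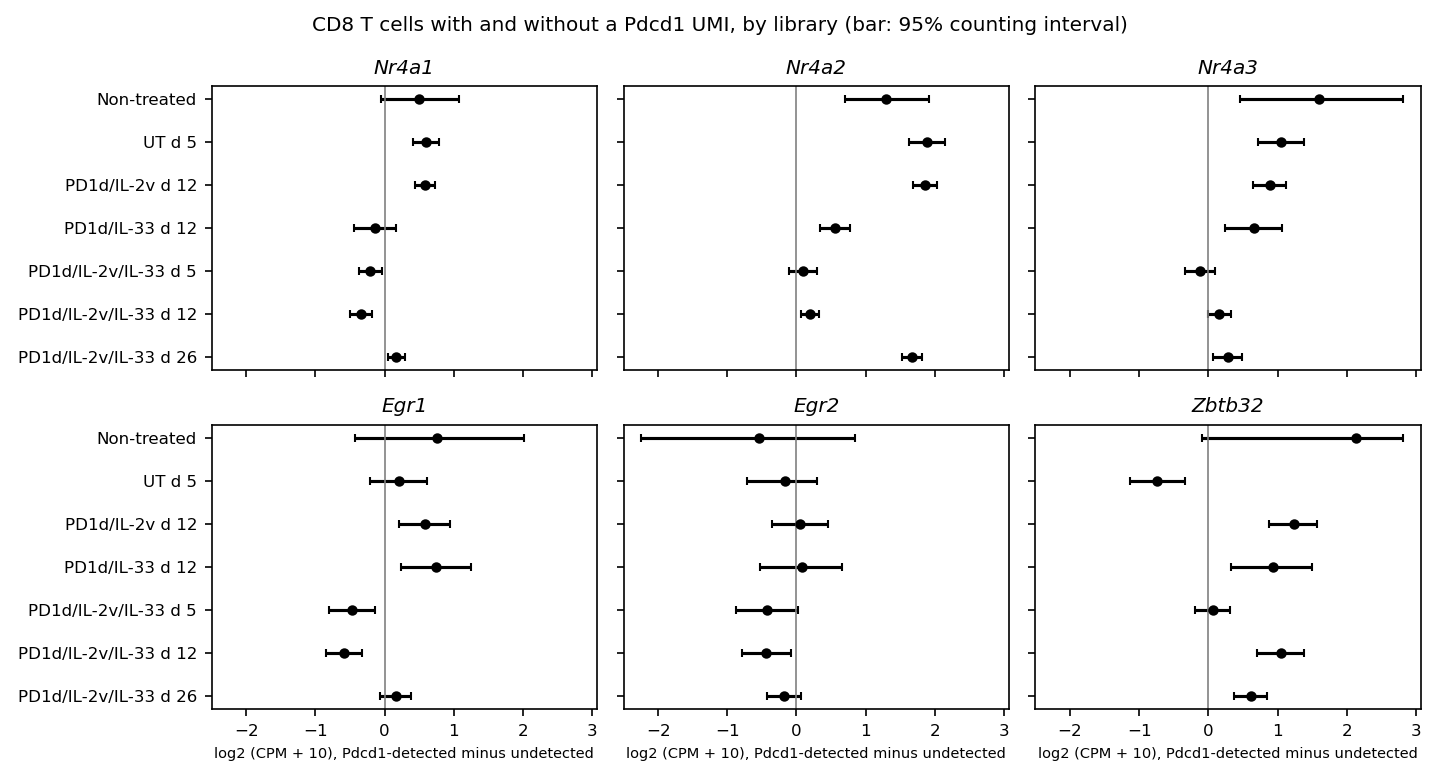
Log2 ratio of (CPM + 10) in Pdcd1-detected over Pdcd1-undetected CD8 T cells (x axis) for 6 genes in each of 7 libraries (y axis), with 95% counting intervals and a grey line at 0. Nr4a2 lies above 0 in all 7 libraries, from 0.09 to 1.88, whereas Nr4a1 and Egr1 lie on both sides of 0.

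Depth and cell cycle moved with the split. Median UMIs per cell were 5365.5 to 10503 in Pdcd1-detected and 4778 to 7697.5 in undetected cells, higher in the former in 7 of 7 libraries. With every cell thinned to 2000 UMIs, Nr4a2 (1.26, adjusted p = 2.07e-07) and Nr4a3 (0.58, edgeR adjusted p = 0.0051) were still called. The gates and the Pdcd1 split were drawn again from the thinned UMIs there, so that the groups did not hold the same cells. All 7 cycling genes were higher in Pdcd1-detected cells, with Ccnb2 at 1.5 (SE 0.32) and Stmn1 at 1.34 (SE 0.26). Without cells that had a Mki67 or Top2a UMI, Nr4a2 was at 1.18 (edgeR adjusted p = 0.00461).

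A split by Lag3, another inhibitory receptor and one that no construct encodes, gave higher Nr4a2 (1.28, adjusted p = 0.000566), Nr4a3 (0.95, adjusted p = 0.000426) and Zbtb32 (1.52, edgeR adjusted p = 6.46e-05) in Lag3-detected cells. Nr4a1 (0.26, adjusted p = 0.156), Egr1 (0.10, adjusted p = 0.654) and Egr2 (0.53, edgeR adjusted p = 0.235) did not pass. The ratios of Nr4a2 were again the smallest in the triple-engineered day 5 (0.30, 0.10 to 0.51) and day 12 libraries (0.44, 0.31 to 0.56), against 0.65 in PD1d/IL-33 and 1.59 to 2.35 in the other 4. Those of Nr4a3 were 0.37 (0.15 to 0.59) and 0.21 (0.05 to 0.37) in these 2 libraries and 0.92 to 1.53 in the other 5, day 26 included. Some signs differed between the splits. In triple-engineered day 12, Nr4a1 was at 0.37 (0.21 to 0.53) by Lag3 and -0.33 by Pdcd1. Egr1 there was at 0.18 (-0.07 to 0.43) and -0.59. In triple-engineered day 5 both stayed negative by Lag3, at -0.40 and -0.59. Zbtb32 in UT day 5 was at 2.00 (1.47 to 2.32) by Lag3 and -0.74 by Pdcd1. Lag3 itself was higher in Pdcd1-detected cells (1.74, SE 0.19), so that the splits are not independent.

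Lists of partners and described targets of these factors, and of exhaustion genes, were also compared between Pdcd1-detected and undetected CD8 T cells. Of the exhaustion genes and NR4A partners 5 of 6 tested were higher and 0 lower, led by Havcr2 (TIM-3, 2.12, SE 0.26) and Tox (1.37, SE 0.15), a transcription factor of exhausted T cells. All 5 were exhaustion genes. The list had 8 genes, so that the NR4A partners Rxra and Rxrb were not both tested, and neither was called. The list's median was 1.16 against -0.01 over all genes. Of the EGR partners and genes described as EGR2 or EGR3 targets 5 of 13 were higher, led by Nrn1 (neuritin; 3.21, SE 0.42) and Nrgn (neurogranin; 2.58, SE 0.37), and 1 was lower, Dgka (-0.86, SE 0.11), a lipid kinase that dampens diacylglycerol signals (median 0.20). The corepressors Nab1 and Nab2 were not among the called genes.

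Upstream components went the other way. Of 11 receptor-signal and NFAT genes 0 were higher and 5 lower, led by Nfatc2 (-0.63, SE 0.12), with a list median of -0.16. Among 8 AP-1 genes Batf (0.57, SE 0.10) and Jund (0.51, SE 0.12) were higher and Jun (-0.63, SE 0.13) lower (median 0.26). Activation-induced genes moved in both directions, with 7 of 20 higher, led by Cd200 (2.54, SE 0.22) and Cd83 (1.56, SE 0.26), and 4 lower, led by Myc (-0.82, SE 0.11) and Cd69 (-0.76, SE 0.15), for a median of 0.21. Of 17 dissociation and heat-shock genes 7 were lower, led by Socs3 (-0.997, SE 0.21) and Hspa1b (-0.70, SE 0.15), and Ier3 alone was higher (0.71, SE 0.24), for a median of -0.15. All adjusted p-values of these calls lay under the threshold in edgeR's quasi-likelihood test over all 8965 genes.

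Between libraries, each comparison set 1 pool of 5 mice against another, and intervals cover counting error only. Nr4a1 in CD8 T cells was 380 CPM in non-treated and 353 in UT day 5 TILs, then 258 in UT day 12, 253 in PD1d/IL-2v, 240 in triple-engineered day 5, 173 in triple-engineered day 12, 156 in PD1d/IL-33 and 131 in triple-engineered day 26 TILs. Counting intervals of neighbours in that order overlapped, except between 353 and 258, between 240 and 173 and between 156 and 131. Nr4a2 was 479 in non-treated, 367 in UT day 12, 356 in UT day 5, 321 in PD1d/IL-33, 294 in triple-engineered day 12, 234 in PD1d/IL-2v, 168 in triple-engineered day 5 and 146 in triple-engineered day 26 TILs. Its neighbours from 479 down to 294 had overlapping intervals, and 294, 234, 168 and 146 did not. Nr4a3 was 168 and 147 in the triple-engineered day 12 and day 5 libraries, 78.2 to 128 in the 5 libraries outside this condition, and 32.3 (29.5 to 35.4) at day 26, the lowest of the 8.

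**Figure D3:**
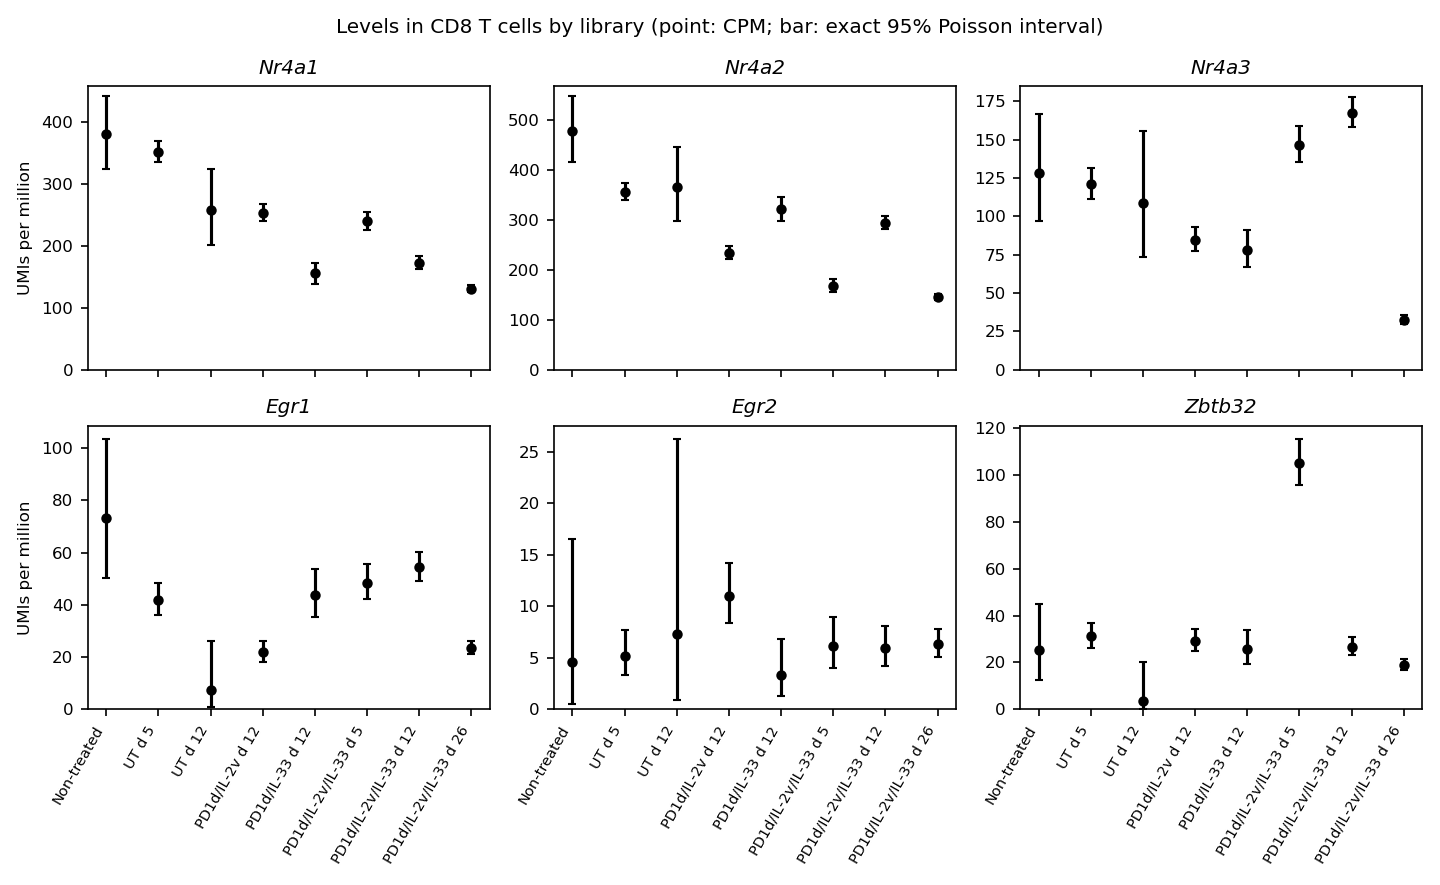
Levels of 6 genes in CD8 T cells (y axis: CPM; bars: exact 95% Poisson intervals) in the 8 libraries (x axis, d for day). Zbtb32 stands at 105 CPM in PD1d/IL-2v/IL-33 day 5 and at 3.63 to 31.1 in the other 7 libraries, and Nr4a3 is lowest at day 26 (32.3 CPM).

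At day 5, PD1d/IL-2v/IL-33 CD8 TILs had more Zbtb32 than UT CD8 TILs (105 against 31.1 CPM, log2 ratio of CPM + 10 of 1.48, 1.26 to 1.70) and less Nr4a2 (168 against 356, -1.04, -1.16 to -0.92). These 2 of 6 members compared were past 2-fold, as were 3.24% of 8637 genes. Nr4a1 was lower (-0.54, -0.65 to -0.43), Nr4a3 higher (0.26, 0.11 to 0.42), and Egr1 and Egr2 had intervals that held 0. With the cell filter of the study's later experiment the ratio of Nr4a3 turned to -0.19. The thinned share of CD8 T cells with a Zbtb32 UMI was 8.71% in the triple-engineered and 2.94% in the UT library, and no single cell held more than 21 of the 446 UMIs.

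At day 12, PD1d/IL-2v/IL-33 was set against each cytokine alone. Against PD1d/IL-2v, Egr1 was past 2-fold (54.5 against 21.8 CPM, 1.02, 0.80 to 1.24) and Nr4a3 close to it (0.91, 0.76 to 1.05), so that 1 of 6 members was past 2-fold beside 2.14% of 9033 genes. Nr4a1 was lower (-0.53, -0.63 to -0.42), Nr4a2 higher (0.32, 0.22 to 0.42) and Egr2 lower (-0.40, -0.66 to -0.13), at 5.91 and 11.0 CPM. The ratio of Nr4a1 turned to 0.35 with the cell filter of the study's later experiment. That of Nr4a2 turned to -0.39 in Pdcd1-detected CD8 T cells and was -0.057 without cells with Hspa1a or Hspa1b UMIs. Against PD1d/IL-33, Nr4a3 was past 2-fold (168 against 78.2, 1.01, 0.80 to 1.22), 1 of 5 members beside 1.72% of 8351 genes, and the intervals of the other 4 held 0. Nr4a3 was the only member whose interval lay above 0 in both of these comparisons, which share the triple-engineered library.

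Over time in the PD1d/IL-2v/IL-33 condition, Zbtb32 went from 105 CPM at day 5 to 26.7 at day 12 (-1.65, -1.85 to -1.45) and 19.0 at day 26. It was the only 1 of 6 members past 2-fold between days 5 and 12, beside 0.68% of 8824 genes, while Nr4a2 was higher at day 12 (0.77, 0.65 to 0.89) and Nr4a1 lower (-0.45, -0.57 to -0.33). Between days 12 and 26 Nr4a3 was lower (168 to 32.3 CPM, -2.07, -2.20 to -1.94), 1 of 6 members past 2-fold beside 3.23% of 9828 genes. Nr4a2 (-0.97, -1.05 to -0.88) and Egr1 (-0.94, -1.11 to -0.78) lay just inside 2-fold, Nr4a1 was at -0.38 and Zbtb32 at -0.34, and the interval of Egr2 held 0. The order of Nr4a3 was not particular to CD8 T cells. Triple-engineered day 12 was also highest and day 26 lowest in CD4 T (224 and 40.8 CPM), myeloid (114 and 24.8) and no-gate cells (225 and 48.2). In NK cells the highest and lowest Nr4a3 levels were those of PD1d/IL-33 and UT day 12. The comparisons over time and between conditions share the triple-engineered day 12 library. These 3 days carried 3 run identifiers in the deposited aggregation record, and the sample labels do not say what these stand for. In the comparisons of conditions at day 5 and at day 12, the libraries compared also differed in run identifier. The cells of day 26 were shallower than those of day 12, with medians of 5194 and 7860 UMIs per CD8 T cell. The PD1d/IL-33 library had a median of 5255 UMIs per CD8 T cell.

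In CD4 T cells the triple-engineered day 12 library stood out for the EGR genes. Egr1 in CD4 T cells was 253 CPM (218 to 293) in triple-engineered day 12, against 23.6 to 106 in the other 7 libraries, and Egr2 was 36.6 (23.9 to 53.6; 26 UMIs in 121 cells) against 0 to 15.5. Nr4a3 in CD4 T cells was also highest there (224 CPM) and lowest at day 26 (40.8). In NK cells Nr4a3 ranged from 22.3 CPM in UT day 12 to 162 in PD1d/IL-33 and 160 in triple-engineered day 12 TILs.

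In myeloid cells Egr1 separated the libraries by sampling code, a pattern chosen after its values were seen and so given with no test. It was 785 CPM (749 to 824) in UT day 5, 483 (459 to 508) in triple-engineered day 5 and 471 (392 to 561) in non-treated TILs, all 3 labelled with the day 5 code. It was 109 (88.0 to 134) or less in the 5 libraries of days 12 and 26. Non-treated and triple-engineered day 26 TILs, with 471 and 49.6 CPM, carried the same run identifier, which the sample labels do not explain. A thinned Egr1 UMI was found in 63.7%, 48.8% and 34.5% of myeloid cells in the first 3 libraries and in 5.45% to 17.1% in the others.

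The other members did not share this split. Egr2 in myeloid cells was 156 CPM (143 to 171) in triple-engineered day 5 and 35.3 to 78.0 in the other 7 libraries, UT day 12 with its 14 myeloid cells included. Nr4a1 was 2353 in UT day 5, 1735 in non-treated, 1322 in PD1d/IL-2v and 515 to 1083 in the other 5, triple-engineered day 5 at 893 among them. Summed activation-induced genes were 18904, 9052 and 12466 CPM in UT day 5, triple-engineered day 5 and non-treated myeloid cells and 3601 to 7463 in the others, and summed dissociation and heat-shock genes were 19165, 9753 and 14680 against 6725 to 13103. The make-up of the myeloid gate also varied between libraries. Summed dendritic-cell markers ranged from 14.3 CPM in triple-engineered day 5 to 463 in PD1d/IL-33 myeloid cells. Summed neutrophil and mast-cell markers ranged from 3.93 in PD1d/IL-33 to 1024 in PD1d/IL-2v myeloid cells. The part of these gene sums and of the make-up in the Egr1 levels was not tested. Age of the tumor and day of processing cannot be told apart from the day code.

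**Figure D4:**
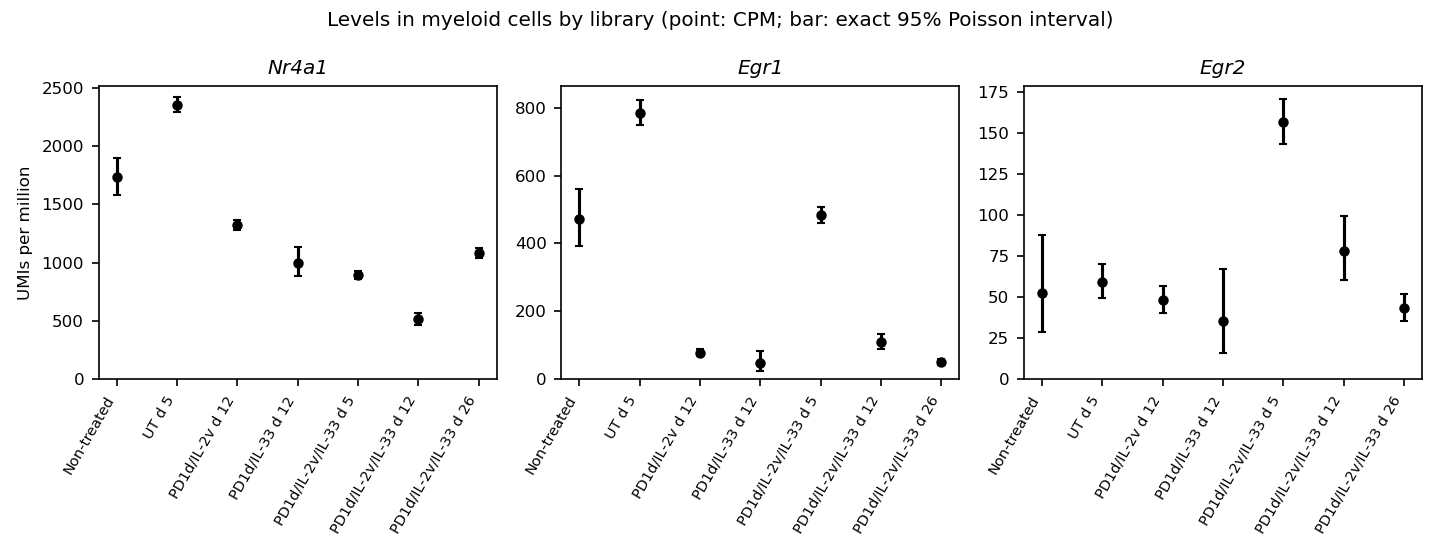
Levels of Nr4a1, Egr1 and Egr2 in myeloid cells (y axis: CPM; bars: exact 95% Poisson intervals) in the 7 libraries with at least 20 myeloid cells (x axis, d for day). Egr1 is at 471 to 785 CPM in the 3 libraries with the day 5 code and at 47.1 to 109 in the other 4, and Egr2 is highest in PD1d/IL-2v/IL-33 day 5 (156 CPM).

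Egr3 was near the detection limit everywhere. It had 33 UMIs in all CD8 T cells, at most 9 in any library, and its level was at most 3.63 CPM (0.09 to 20.2, 1 UMI) in UT day 12 CD8 T cells. In PD1d/IL-33 CD8 T cells 0 of 2121916 UMIs were Egr3, which allows up to 1.41 CPM. Over all barcodes its level lay between 0.42 and 1.66 CPM in the 8 libraries, whose counting intervals overlap. Egr3 could not be compared between gates or conditions at this depth.

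Members were detected together in the same CD8 T cells. With cells thinned to 2000 UMIs, the share with a Nr4a2 UMI was higher among cells with than without a Nr4a1 UMI in 7 of 7 libraries, with medians of 46.4% and 28.4%. For Nr4a3 the medians were 26.1% and 10.6% and for Egr1 13.4% and 5.81%, again higher in 7 of 7. Zbtb32 was the exception in the pairing with Nr4a1, higher in 3 of 7 libraries, with medians of 4.14% and 4.02%. Among cells with than without a Nr4a3 UMI the Zbtb32 share was higher in 5 of 6 libraries, with medians of 6.38% and 4.23%. UMIs were concentrated in few cells, and the tenth of CD8 T cells with the most Nr4a2 UMIs held 44.0% to 80.6% of them.

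Across 31 sums per library and gate, the genes whose log2 levels were most like those of a member were Csrnp1 (Pearson's r = 0.88), Ifrd1 (0.88) and Xbp1 (0.86) for Nr4a1, out of 8468 genes. For Egr1 they were Rsad2 (0.83), Tnfsf9 (0.82) and Tnf (0.81), and for Egr2 Mnda (0.89), Sowahc (0.88) and Anxa3 (0.88). Nr4a2 had Bend4 (0.70), Gm5611 (0.68) and Rpl27 (0.67), Nr4a3 had Hdac4 (0.75), Mepce (0.74) and Slc7a1 (0.69), and Zbtb32 had Cit (0.83), Rwdd1 (0.81) and 1700097N02Rik (0.79). Among the members themselves Nr4a1 and Egr1 were at 0.69, Egr1 and Egr2 at 0.65, and Nr4a1 and Nr4a2 at -0.19. These sums share libraries and gates, so the values describe the table and carry no p.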

How the data were processed

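CD45+ TILs were profiled by 5′ single-cell RNA-seq in 8 libraries. The deposited counts are UMIs per gene and cell, which the authors made with Cell Ranger on reads demultiplexed with bcl2fastq and aggregated into 1 matrix. The submitters' processing notes name Cell Ranger 2.2.0 and GRCm38, while the methods name another version. Library names and gene symbols were taken from the deposited tables.

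Cells with 500 to 6000 genes, 2000 to 40000 UMIs, 5% to 60% ribosomal protein and under 10% mitochondrial UMIs were kept. Gates used raw UMIs: CD8 T (at least 1 UMI of CD3 genes and of Cd8a or Cd8b1, no Cd4), CD4 T (at least 1 of CD3 genes and of Cd4, no CD8 genes) and NK (at least 1 of Ncr1 or Klrb1c, no CD3, CD8 genes or Cd4), each with at most 1 myeloid UMI, and myeloid (at least 3 UMIs of Lyz2, Csf1r, Cd68, C1qa and Adgre1, no CD3, CD8 or NK genes), all without Cd79a and Ms4a1. The study's own gating was not used here. No doublet caller was run, and the gates refuse mixed markers. In fits of thinned cells the gates and the Pdcd1 split were drawn again from the thinned UMIs, while thinned shares kept the original gates. Sums of at least 20 cells were tested with edgeR 4.0.16 (TMM, filterByExpr, glmQLFit, library as block, called at an adjusted p under 0.05 by Benjamini-Hochberg over all genes), with DESeq2 1.42.0 as an alternative. The gates were fitted together. Both tools were tested on simulated data. Each SE was calculated back from edgeR's test, as the size of the log2 difference divided by the square root of the F statistic. The Pdcd1-detected and undetected sums come from the same library, which is the pairing. Where each side was 1 library, levels (CPM) carry Poisson intervals (exact, 95%), and log2 ratios of CPM + 10 were taken over genes with at least 50 UMIs, and shares by Clopper-Pearson intervals (counting error only; limit of a count of 0: 3 counts).

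All 7 members were described, of each gene list the called genes with the 2 largest changes in each direction, and for each member the 3 most alike genes. The values of 1 list gene are not reported here. Members and lists were chosen with earlier results of these data known. Near-identical stretches of paralogs could share reads. R 4.3.3, Python 3.11.15, scipy 1.17.1 and matplotlib 3.10.9 were used.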

Additional observations from a re-analysis of the deposited data

Results flagged for a closer look

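Some differences had opposite signs in different libraries, with counting intervals on both sides of 0. Only libraries with at least 20 cells on each side and an interval that excluded 0 are listed. None of these contrasts between libraries was tested. All values are log2 ratios of CPM + 10.

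In Pdcd1-detected over undetected CD8 T cells, Nr4a1 was at 0.60 in UT day 5, 0.58 in PD1d/IL-2v and 0.17 in PD1d/IL-2v/IL-33 day 26 TILs, and at -0.20 and -0.33 in PD1d/IL-2v/IL-33 day 5 and day 12 TILs. Egr1 was at 0.58 in PD1d/IL-2v and 0.74 in PD1d/IL-33, and at -0.47 and -0.59 in PD1d/IL-2v/IL-33 day 5 and day 12. Zbtb32 was at -0.74 in UT day 5 and at 1.23 in PD1d/IL-2v, 0.93 in PD1d/IL-33, 1.05 in PD1d/IL-2v/IL-33 day 12 and 0.61 in its day 26 library. In UT day 5 a single CD8 T cell held 20 of the 144 Zbtb32 UMIs. Counting intervals do not cover such concentration in few cells. Some of these signs turned when the cells were split by Lag3. Nr4a1 was then at 0.37 and Egr1 at 0.18, its interval holding 0, in PD1d/IL-2v/IL-33 day 12. Zbtb32 was at 2.00 in UT day 5. Nr4a1 and Egr1 in PD1d/IL-2v/IL-33 day 5 stayed negative (-0.40 and -0.59).

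For day 12 over day 5, Nr4a1 in CD4 T cells was at -0.80 under UT ACT and 0.19 under PD1d/IL-2v/IL-33 ACT, and Egr1 in CD4 T cells at -1.22 and 1.18. In NK cells Nr4a2 was at -0.56 and 0.34 and Nr4a3 at -1.16 and 0.67. The UT day 12 library holds 32 CD4 T and 51 NK cells.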

How the results depend on the processing

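Values depend on which cells enter, and depth limits Egr2 and Egr3. The alternatives were other cell filters (among them the filter of the study's later experiment), stricter gates, thinning, leaving out the deepest cells, cycling cells or Hspa1a and Hspa1b cells, other scalings, low-count filters, DESeq2, no block and leaving out each library. For the Pdcd1 split they also held a split by Lag3 and a stricter Pdcd1 threshold. The cause of the changes was not tested.

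The Pdcd1 split called 2 members, against 1 with stricter gates and 0 with no replicate block, which drops the pairing of sums from the same library, and 1 to 3 without 1 library. Over all genes 2011 were called, against 547 with the later filter, 221 thinned, 876 without the deepest cells and 912 without cycling cells. The count was 307 with no replicate block and 1244 to 1956 without 1 of the 7 libraries in the fit. Leaving out UT day 12 is counted among the alternatives but changed nothing in this split, since that library was not in the fit. CD4 T against NK cells went from 4 members called to 2 with no replicate block, and CD8 T against NK cells from 2 to 1 with no replicate block and 5 with no filter on low counts. With no replicate block Nr4a2 (0.0893) and Nr4a3 (0.561) in the Pdcd1 split, Nr4a1 in CD4 T against NK cells (0.0756), Nr4a2 in CD8 T against NK cells (0.0546) and Nr4a3 in CD8 T against myeloid cells (0.0969) lost their calls (edgeR adjusted p). Thinning left 3467 of 5908 genes called in CD4 T against myeloid cells, 1604 of 3232 in CD4 T against NK, 1094 of 2316 in CD8 T against CD4 T, 4129 of 6512 in CD8 T against myeloid, 1774 of 3388 in CD8 T against NK and 4023 of 6291 in NK against myeloid cells. With no replicate block 1305 were called in CD8 T against CD4 T and 2116 in CD8 T against NK cells.

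Members past 2-fold went from 2 to 1 in PD1d/IL-2v/IL-33 against UT at day 5 without cycling cells, without Hspa1a or Hspa1b cells and with TMM factors. Against PD1d/IL-2v they went from 1 to 0 with no cell filter, stricter gates, without Hspa1a or Hspa1b cells and in Pdcd1-detected cells, to 3 with the later filter, and to 2 without the deepest or cycling cells and with TMM factors. Against PD1d/IL-33 they went from 1 to 0 with no cell filter, thinned, without Hspa1a or Hspa1b cells and in Pdcd1-detected cells. Between days 5 and 12 they went from 1 to 2 with the later filter and thinned, and between days 12 and 26 from 1 to 3 with the later filter, thinned, without the deepest or cycling cells, with a pseudocount of 1 and with TMM factors. Of the ratios whose counting interval excluded 0, signs turned for Nr4a3 at day 5 (-0.19) and Nr4a1 against PD1d/IL-2v (0.35) with the later filter, and for Nr4a2 against PD1d/IL-2v without Hspa1a or Hspa1b cells (-0.057) and in Pdcd1-detected cells (-0.39). Ratios whose interval held 0 also changed sign under at least 1 alternative, for Egr1 and Egr2 at day 5, Zbtb32 against PD1d/IL-2v, Nr4a1, Nr4a2, Egr1 and Zbtb32 against PD1d/IL-33, and Egr2 between days 5 and 12 and between days 12 and 26.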
